A study of Mus musculus with 10 samples.

Results

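Deletion of Smchd1 in female (XX) mouse neural stem cell lines was described from the ATAC-seq peaks of 6 samples, out of 10 in the whole series. The groups were 3 samples titled Smchd1 del/del and 3 titled Smchd1 fl/fl, and 2 male samples of each genotype served for comparison. All lines were of the C57BL/6 strain and came from E14.5 embryos homozygous for a floxed Smchd1 allele, so the controls carry that allele too. The labels' protocol describes a retrovirus, MSCV-Cre-puro, which carries Cre recombinase with puromycin selection begun at 24 h, and harvest on day 7 after transduction. The same text stands with every sample, and it does not say whether the controls were transduced.

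SMCHD1 is a non-canonical member of the SMC family of chromosome proteins. It is enriched on the inactive X chromosome, where it is needed to keep many genes silent, and it takes part in silencing at several imprinted gene clusters. In ATAC-seq a transposase cuts DNA where chromatin is open, so a peak marks a stretch of accessible chromatin such as a promoter or an enhancer. The labels state that comparisons were made between the genotypes, in females alone or in both sexes together.

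The authors deposited 1 peak list per group, called on pooled samples. The values below therefore have no replicate error, and no difference between the genotypes could be tested. On chromosomes 1 to 19 and X the control female list held 130005 peaks from 144613215 tags, and the deleted female list held 104238 peaks from 139318421 tags. The tag length in the headers was 53 bp in control and 63 bp in deleted females, and 62 bp and 59 bp in males, which rested on 91734730 and 74674218 tags. The part of tag length in the results was not tested. All 17 neural stem cell markers had a shared peak and 15 had one at a gene end. Of 10 microglia and blood markers 8 had a shared peak and 4 one at a gene end. Over all 49554 genes the numbers were 25632 and 16848. All 15 neuron, 9 astrocyte, 8 endothelium and 8 fibroblast markers had a shared peak, as had 8 of 10 oligodendrocyte markers. The counts therefore do not tell the cell types apart. The 104 shared peaks of the neural stem cell markers had a median relative change, the measure defined next, of 0.09, with 0 shifted up and 1 down. With so few peaks these counts cannot be told from the shares over all shared peaks, 1.77% up and 1.21% down.

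Both lists were cut to an equal length of 104238 by −log10 q, which removed control peaks under a −log10 q of 4.71 and no deleted peak. A mutual best overlap paired 82040 peaks, 78.7% of each list. The other 22198 peaks of each list had no partner, and most were weak. Among the strongest 52119 peaks of each list, 835 control peaks (1.60%) and 1398 deleted peaks (2.68%) had none. Of the unpaired deleted peaks, 8807 overlapped a peak of the full control list, which includes peaks that the length limit removed and peaks that it kept. Of the unpaired control peaks, 731 overlapped a peak of the deleted list, from which none was removed.

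Most shared peaks differed little in height beyond a common offset. Fold enrichment, the authors' ratio of summit height over background, had a median log2 difference, deleted over control, of −0.15, and this offset varied between −0.20 and 0.00 over 20 classes of peak strength. A relative change was therefore taken as the log2 ratio of fold enrichment minus the autosomal median in the same strength class. A peak was called shifted up or down when its relative change was at least 0.5 in size, a 1.41-fold difference, and its rank by −log10 q moved the same way. By this rule 1455 peaks, 1.77%, were shifted up after deletion and 994 peaks, 1.21%, were shifted down. Upward shifts made up 59.4% of the total, against 47.2% when 1 median served for all peak strengths. The share was 48.4% with a threshold of 0.3 and 81.0% with 0.75, so the balance of directions rests on the centring and on the threshold. The plot of fold enrichment in both lists shows how narrow the bulk of peaks was.

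**Figure D1:**
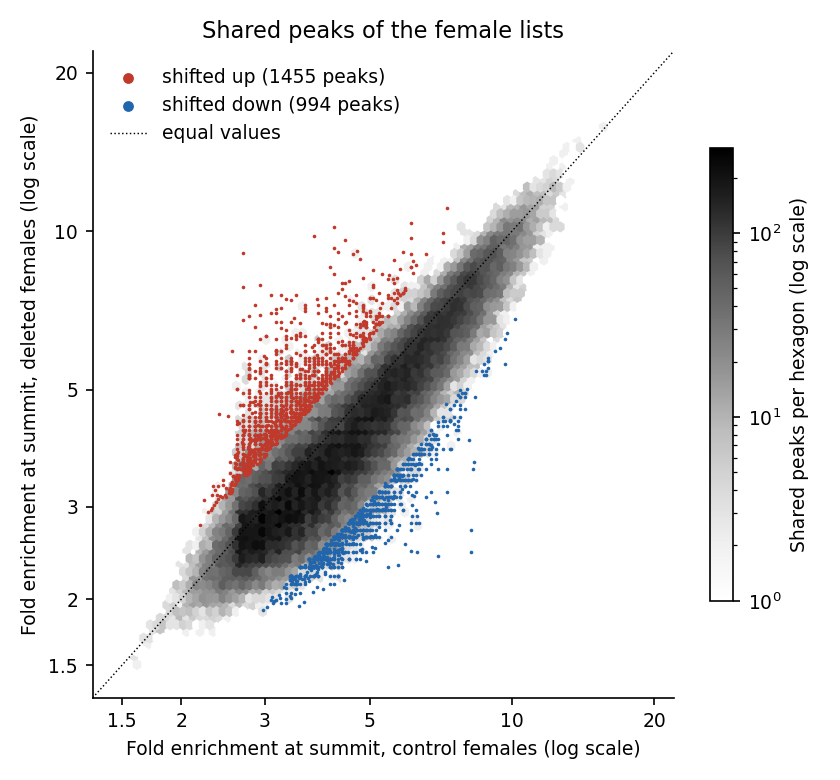
Fold enrichment at the summit of each of the 82040 shared peaks in control (x axis) and deleted females (y axis), both on log scales. Grey shading counts peaks, red points are the 1455 peaks shifted up and blue points the 994 shifted down; shifted peaks lie mostly between 2.5 and 10 and thin out among the strongest peaks.

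Shifts were concentrated in peaks of middle and low strength. From the strongest to the weakest of 4 classes of 20510 shared peaks each, 52, 417, 700 and 286 peaks were shifted up, and 27, 185, 423 and 359 were shifted down. The SD of the relative change in these classes was 0.15, 0.22, 0.27 and 0.23, which is no larger than the SD that counting tags at the 2 summits would give, at 0.19, 0.25, 0.29 and 0.33. A shift of a weak peak can therefore be of the size of counting error, and the main peaks below are given with a 95% counting interval from an exact binomial split of their 2 pileups. These intervals are per peak and are not adjusted for the number of pairs. That interval excluded 0 for 880 of the 1455 upward and 367 of the 994 downward shifts. It is centred on the relative change that selected these peaks, so these counts are no independent support for the shifts. The threshold cuts a continuous range. The last peak inside it, at Slco1a5, had a relative change of 0.50 with fold enrichment going from 3.16 to 3.94, and the first outside, at Caly, went from 2.59 to 3.21.

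Comparisons of lists of 1 genotype give the level of such calls without deletion as the variable. Between control males and control females, 0.67% of autosomal shared peaks were called up and 1.04% down. Between deleted males and deleted females the values were 1.16% and 1.43%. These comparisons share the female lists with the one described here. In total 2.95% of autosomal pairs were called in the female deletion comparison and 4.66% in the male one, with 1.71% between the control lists and 2.59% between the deleted lists of the sexes. In deleted females the counting interval lay wholly on the upward side for 1.20% of autosomal pairs and on the downward side for 0.540%. The shares were 0.195% and 0.239% between the controls, 0.292% and 0.339% between the deleted lists, and 0.716% and 0.535% in deleted males. Because these intervals are not adjusted for the number of pairs, counting error alone would produce some such pairs. The shares therefore do not show changes beyond counting error.

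Peaks that shifted up were small and narrow in control cells. Their median fold enrichment went from 3.29 to 4.63, their median rank improved from 71009 to 30372, and their median width went from 265 to 321 bp. Of these peaks 77.8% were wider in the deleted list, whereas 22.1% of peaks that did not shift were wider there. Peaks that shifted down went from a median fold enrichment of 4.74 to 2.71 and from a rank of 38450 to 78398. Only 5.13% of the downward peaks were wider after deletion. The rule that called the shifts sets the direction of the changes in height and rank. These values therefore describe the selected peaks and are no further support for the shifts. Whether width changed apart from height was not tested. The summits compared lay over 100 bp apart in 8.38% of upward, 17.4% of downward and 8.99% of other pairs.

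The position of a peak relative to genes went with how often it shifted up. Peaks were placed at a gene end (within 1 kb), inside a gene, near a gene (within 50 kb) or far from any gene. On autosomes 0.920% of gene-end peaks shifted up, with a counting interval of 0.788% to 1.07%. The share was 1.53% inside genes, 2.27% near genes and 4.30% far from genes, the last with an interval of 3.72% to 4.94%. Downward shifts were rarest at gene ends, at 0.595%, and lay between 1.17% and 1.47% elsewhere. Gene-end peaks were also the strongest class, with a median fold enrichment of 5.17 in control cells, while peaks inside, near and far from genes had medians of 4.08, 4.13 and 4.21. Among peaks inside genes, X included, 2.88% shifted up in genes over 500 kb long and 1.23% in genes under 50 kb. The shares shifted down were 1.59% and 1.05%.

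Peaks with a gene numbered 77351 and were spread over 25632 genes. Of these genes, 1100 had at least 1 peak shifted up, 887 at least 1 shifted down and 51 had both. A run of shifts in 1 gene was rare, since 27 genes had 3 or more peaks shifted up and 6 genes had 3 or more shifted down. The 10 genes named first here are those with the most upward shifts among genes with at least 5 shared peaks. All but Lancl3 were over 200 kb long, and long genes hold more peaks that can shift.

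Rbfox1, which encodes a neuronal RNA-binding splicing regulator, had the most upward shifts, with 8 of its 24 shared peaks and none shifted down. The gene spans chr16:5884793-7412480 (mm10). Its median relative change was 0.22, and 15 of the 24 peaks were above 0. The internal peak that changed most, chr16:6716277-6716528, went from a fold enrichment of 3.81 to 9.77 and from rank 57713 to rank 2822, a relative change of 1.56 (1.06 to 2.08). In males the same peak went from 3.35 to 12.88. The upward shifts lay in the body and towards the far end of the gene, whereas the strong peak at chr16:5911793-5912475 went from 9.16 to 7.98 and both peaks at the gene's first end had values below 0. Over the 20 Rbfox1 peaks with a male partner the male median was 0.21, with 4 shifted up. With lists of the strongest 52119 peaks the female median of Rbfox1 was 0.00.

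Thsd7b, which encodes a membrane protein with thrombospondin repeats, was named both by its upward shifts and by its high median. It lies at chr1:129273190-130219278 (mm10). All 9 shared peaks of Thsd7b were above 0, from 0.19 to 1.49, and 5 were shifted up. The median relative change was 0.50, and the median fold enrichment went from 4.37 to 5.59. Its most changed peak, inside the gene at chr1:129887956-129888121, went from a fold enrichment of 3.10 to 7.56, a relative change of 1.49 (0.93 to 2.08). In males 8 of the 9 peaks were above 0, 3 were shifted up and the median was 0.44.

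The other genes with the most upward shifts encode proteins of several kinds. Gm32647, a long noncoding RNA gene of 1284 kb, had 5 of 15 peaks shifted up, and all 15 were above 0. In males 1 Gm32647 peak was shifted up, 2 were shifted down and 9 of 15 were above 0. Csmd1, a large membrane protein with complement control repeats, had 5 of 20 shifted up and a median of 0.21, but −0.03 with lists of the strongest 52119 peaks. Camta1, a calmodulin-binding transcription activator, had 5 of 43 shifted up and a median near the background at 0.04. Asic2, an acid-sensing ion channel, had 4 of 18 shifted up. Its internal peak at chr11:81767734-81768054 went from 3.33 to 7.43 in females and from 3.71 to 9.65 in males. Dlg2, a scaffold of the postsynaptic density, had 4 of 47 shifted up, and these 4 lay between 91583686 and 91716145 on chromosome 7. Phactr3, a regulator of protein phosphatase 1 and actin, had 4 of 14 shifted up, and its median of 0.21 became −0.02 with those shorter lists. Cpne4, a calcium-dependent membrane-binding protein, had 3 of 8 shifted up and a median of 0.42. Males had a median of 0.32 for Asic2, 0.20 for Csmd1, 0.12 for Phactr3 and 0.09 for Cpne4.

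Lancl3 was the X-linked gene with the most upward shifts, and its male median had the opposite sign, over 4 peaks of which 0 were shifted in males. Its 7 shared female peaks all lay above 0, from 0.09 to 0.72, with 3 shifted up and a median of 0.49. The peak at chrX:9248889-9249409 went from a fold enrichment of 4.13 to 5.91 in females, a relative change of 0.72 (0.18 to 1.27), and from 5.02 to 3.86 in males. Of the 4 Lancl3 peaks with a male partner, only the one at the gene end was above 0 in males, at 0.38, and the male median was −0.37.

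Kcnh8, a voltage-gated potassium channel, and Epb41l3, a membrane skeleton protein of the 4.1 family, were added by the highest medians among genes with at least 8 shared peaks. All 8 Kcnh8 peaks were above 0, with a median of 0.40 in females and 0.39 in males, and 2 were shifted up. Epb41l3 had a median of 0.39 and 3 of 9 peaks shifted up, against a male median of 0.12. All 8 peaks of Gabrg3, a GABA-A receptor subunit, were above 0 in females with a median of 0.26, while the male median was −0.01. Zp3r and the noncoding gene Gm20670 had female medians of 0.26 for both and male medians of −0.06 and 0.05. The Gm20670 median was −0.08 with only peaks at or inside genes.

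**Figure D2:**
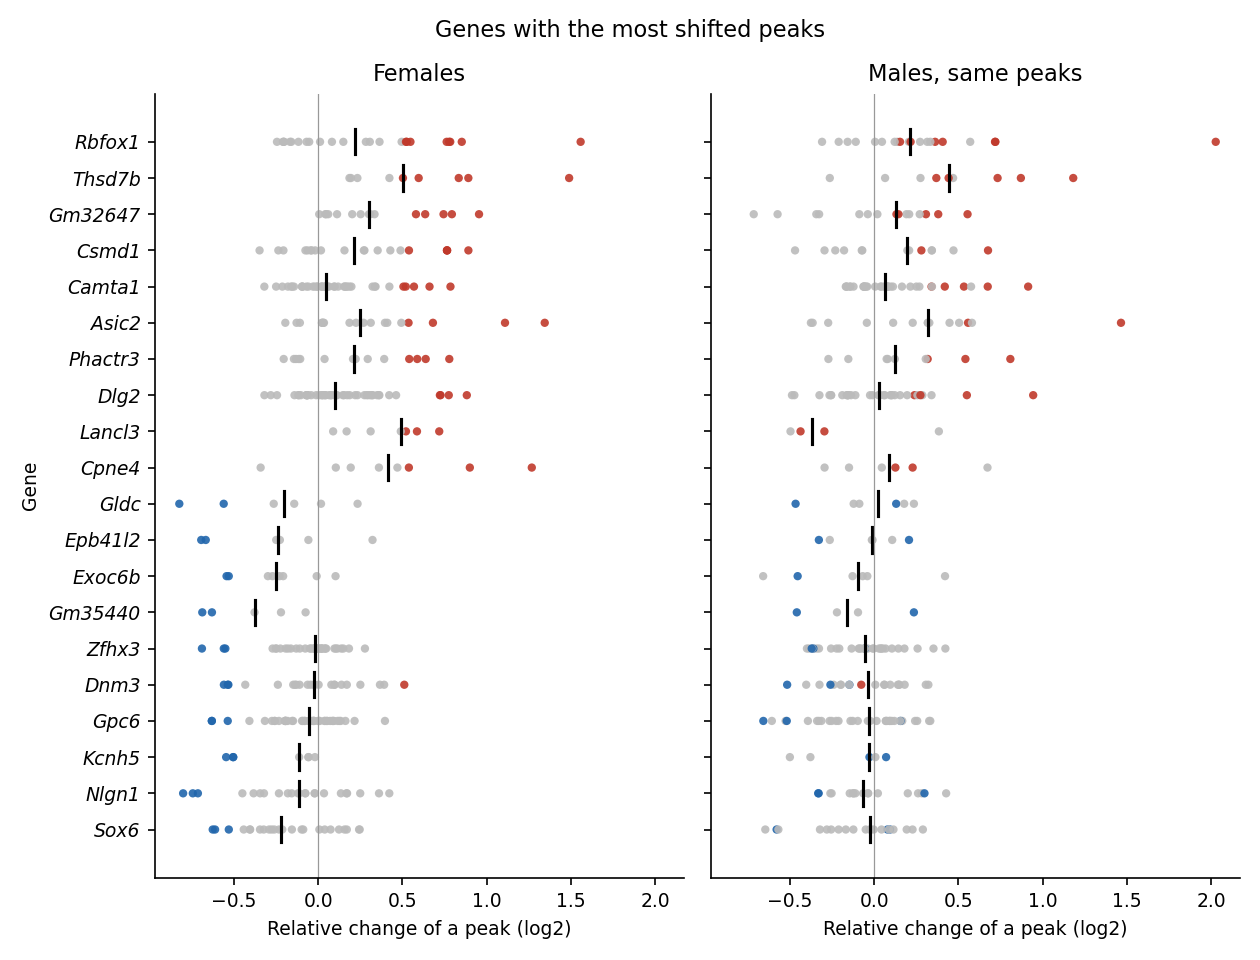
Relative change (log2) of every shared peak of the 10 genes with the most upward and the 10 with the most downward shifts, in females (left) and for the same peaks in males (right). Each point is 1 peak, coloured red or blue where it shifted up or down in females, and black bars are medians; all Thsd7b peaks lie above 0 in females and 8 of 9 do in males.

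Downward shifts were more scattered, with at most 3 in any gene. Sox6, a transcription factor of neural and glial differentiation, had 3 of 24 peaks shifted down and a median of −0.22. Its internal peak at chr7:115568817-115569179 went from a fold enrichment of 5.21 to 2.96, a relative change of −0.63 (−1.26 to −0.02), while males had 4.16 and 4.15. The Sox6 gene-end peak went from 5.63 to 5.99, and with lists of the strongest 52119 peaks the Sox6 median was 0.01. In males 3 of 21 Sox6 peaks were shifted down, with a median of −0.03.

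Nlgn1, a synaptic adhesion protein, had 3 of 23 peaks shifted down, and 7 of the 23 were above 0. The Nlgn1 peak at chr3:26152502-26153314 went from 4.68 to 2.38, a relative change of −0.80 (−1.51 to −0.13), and from 5.74 to 4.29 in males, with female summits 244 bp apart. Kcnh5, another potassium channel, had 3 of 7 shifted down, and none of the 7 was above 0. Each of these 3 Kcnh5 shifts had an interval that included 0. Gpc6 (a glypican), Dnm3 (a dynamin) and Zfhx3 (a zinc finger homeobox factor) had 3 shifted down of 44, 23 and 35 peaks, with medians of −0.05, −0.03 and −0.02. Gldc, which encodes a subunit of the glycine cleavage system, had 2 of 6 shifted down, whereas its gene-end peak went from 7.78 to 7.53, a relative change of 0.02.

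The lowest medians among genes with at least 8 shared peaks were −0.29 at Patj, a cell polarity scaffold, and −0.28 at Vti1a, a SNARE protein. Only 1 of 10 Patj peaks and 2 of 16 Vti1a peaks were above 0, but 0 and 1 reached the threshold. The male medians were −0.09 and 0.07. Arhgef28, Exoc6b, Nfasc, Ppp3ca, Fam124a and Il1rap followed with female medians between −0.27 and −0.24. With lists of the strongest 52119 peaks the medians were 0.04 at Nfasc, −0.09 at Arhgef28 and −0.05 at Patj. Of these, Il1rap, the accessory chain of the interleukin-1 receptor, also had a low male median, at −0.32, while the other 5 lay between −0.10 and 0.06.

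Few strong peaks moved. Within the strongest 20510 shared peaks the largest upward change was inside Sgip1, a regulator of endocytosis, at chr4:102759008-102759879. Its fold enrichment was 4.70 in control and 9.17 in deleted females, with ranks of 26005 and 1407 and a relative change of 1.09 (0.71 to 1.48). In males the same Sgip1 peak went from 5.95 to 4.53, a relative change of −0.33 (−0.86 to 0.19). The female summits of this Sgip1 peak lay 781 bp apart. Another of these strong peaks lay inside Gm32647 and went from 6.11 to 9.69 in females and from 6.82 to 9.73 in males.

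Among the strongest peaks that moved down, the one near H2al2a went from 9.68 to 5.59, a relative change of −0.67 (−1.12 to −0.22). The peak near Serpine2, a serine protease inhibitor, went from 8.81 to 5.34, and the one at an end of Rad50, a DNA repair gene, from 8.89 to 5.50. Males had relative changes of −0.42 near H2al2a, 0.01 near Serpine2 and 0.05 at Rad50. The peak inside Igf1r, the receptor of insulin-like growth factor 1, at chr7:68085301-68086484 went from 6.97 to 4.33 in females, a relative change of −0.56 (−0.99 to −0.14). In males it went from 5.96 to 8.77, with 0.58 (0.14 to 1.03), so the direction was opposite in the sexes. The female summits at Igf1r lay 805 bp apart.

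Gene-end peaks changed least often but include the promoters. Cdkn2c, which encodes the cyclin-dependent kinase inhibitor p18, had a gene-end peak at chr4:109665622-109666617 that went from a fold enrichment of 3.47 to 6.85 and from rank 43784 to rank 5607. Its relative change was 1.15 (0.74 to 1.58) in females and 0.03 (−0.56 to 0.61) in males, where the values were 3.89 and 3.72. The Cdkn2c summits of the female lists lay 446 bp apart, so the values compare different points of a wide peak, and the pair is lost when summits must lie within 100 bp. Trim30a, an E3 ubiquitin ligase gene of a recently duplicated family, went from 4.84 to 8.13 in females, and males had 5.38 and 9.73. The peak of Trim6, from the same gene cluster, went from 5.63 to 8.81 in females but from 9.33 to 9.85 in males. Female values rose from 5.08 to 8.43 at the protein-coding gene 5730507C01Rik and from 5.87 to 9.13 at the noncoding gene 5530401A14Rik. Male control and deleted values were 3.95 and 9.77 at 5730507C01Rik, and 4.55 and 12.01 at 5530401A14Rik.

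The 200 bases before the RefSeq start of these genes, in GRCm38.p6 and 5′ to 3′ on the gene's strand, are shown with CpG pairs in capitals because the upward promoters differ widely in CpG number. Cdkn2c holds 28 CpG pairs (chr4:109666757-109666956, minus strand), 5730507C01Rik 25 (chr12:18514310-18514509, plus strand), Trim6 6 (chr7:104218595-104218794, plus strand), 5530401A14Rik 1 (chr11:81860477-81860676, plus strand) and Trim30a 0 (chr7:104465194-104465393, minus strand).
Cdkn2c: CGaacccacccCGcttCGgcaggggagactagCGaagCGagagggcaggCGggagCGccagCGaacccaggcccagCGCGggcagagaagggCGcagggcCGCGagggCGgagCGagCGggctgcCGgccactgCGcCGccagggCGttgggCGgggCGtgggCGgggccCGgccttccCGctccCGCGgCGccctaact
5730507C01Rik: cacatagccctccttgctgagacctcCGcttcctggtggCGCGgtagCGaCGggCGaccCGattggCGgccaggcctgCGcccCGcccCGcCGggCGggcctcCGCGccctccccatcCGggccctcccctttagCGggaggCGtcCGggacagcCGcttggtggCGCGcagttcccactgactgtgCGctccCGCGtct
Trim6: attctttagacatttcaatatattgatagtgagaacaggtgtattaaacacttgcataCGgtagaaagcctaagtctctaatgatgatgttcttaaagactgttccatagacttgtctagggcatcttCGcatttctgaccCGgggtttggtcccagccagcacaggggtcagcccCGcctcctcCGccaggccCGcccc
5530401A14Rik: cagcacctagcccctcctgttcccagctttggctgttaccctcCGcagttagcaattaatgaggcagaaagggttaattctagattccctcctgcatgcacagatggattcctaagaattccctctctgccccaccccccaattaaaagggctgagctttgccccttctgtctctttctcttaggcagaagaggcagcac
Trim30a: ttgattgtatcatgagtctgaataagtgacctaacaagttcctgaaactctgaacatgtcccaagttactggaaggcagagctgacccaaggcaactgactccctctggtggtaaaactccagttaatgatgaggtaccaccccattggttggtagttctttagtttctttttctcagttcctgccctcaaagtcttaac

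A pair of promoters shows the opposite direction, Gm32067 with 3 CpG pairs and Fkbp11 with 6. The gene-end peak of the noncoding gene Gm32067 went from a fold enrichment of 7.30 to 3.53, a relative change of −0.85 (−1.41 to −0.31), and from 8.02 to 6.44 in males. Fkbp11, which encodes a peptidyl-prolyl isomerase of the secretory pathway, went from 5.64 to 3.14, and from 6.76 to 5.79 in males. The female summits lay 435 bp apart at Gm32067 and 567 bp apart at Fkbp11. The sequences lie at chr13:78483264-78483463 (plus strand) and chr15:98728199-98728398 (minus strand).
Gm32067: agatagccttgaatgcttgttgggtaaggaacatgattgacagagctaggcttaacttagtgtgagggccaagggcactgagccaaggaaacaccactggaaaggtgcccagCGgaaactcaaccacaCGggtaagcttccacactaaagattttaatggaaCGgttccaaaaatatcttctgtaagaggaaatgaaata
Fkbp11: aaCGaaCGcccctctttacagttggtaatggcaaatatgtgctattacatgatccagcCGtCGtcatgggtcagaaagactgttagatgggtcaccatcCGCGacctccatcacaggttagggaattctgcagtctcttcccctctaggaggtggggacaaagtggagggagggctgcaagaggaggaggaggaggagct

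Across all start-site peaks that shifted, promoters had fewer CpG pairs in both directions than those of all start-site peaks. The median over the 300 bases around the start was 13.5 CpG pairs for 68 promoters at peaks shifted up, 10.5 for 44 at peaks shifted down and 22 for all 13154 promoters at a shared peak, with GC contents of 57%, 54.8% and 62%. The letters GGGCGG, searched on both strands, were present in 52.9%, 50% and 66.7% of them, and in 35.9% of all 32619 promoters in the table. CCAAT was present in 41.2%, 54.5% and 37.9%. TATAAA was present in 8.82%, 22.7% and 5.95%, which is 6, 10 and 783 promoters. The shares were 10.3%, 2.27% and 4.36% for TGANTCA, 5.88%, 0% and 3.35% for TGACGTCA, and 55.9%, 52.3% and 50.3% for TTGGC. The sets were not matched for peak strength, and few of the strongest shared peaks shifted. The part of strength in these differences was not tested. Start-site peaks on autosomes shifted up in 0.509% of cases and were the class with the fewest shifts.

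The remaining large gene-end changes included genes of repeated families. Cntnap5c, a contactin-associated protein gene, went from 3.25 to 7.56 in females, a relative change of 1.40 (0.85 to 1.98), and from 3.95 to 8.58 in males. Hnf4g, a nuclear receptor gene, went from 3.49 to 6.32 and from 3.83 to 6.72. Ighv2-3 and Trbv12-2, antigen receptor segments, had female relative changes of 0.98 for both and male values of 0.93 and 0.90. Reads of such families, of Trim30a and of olfactory receptor genes may be shared with near-identical copies, so their values are uncertain. Mirg, a microRNA host transcript of the imprinted Dlk1 to Dio3 cluster, went from 4.44 to 7.53 in females and from 5.32 to 8.90 in males, with relative changes of 0.94 and 0.80.

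**Figure D3:**
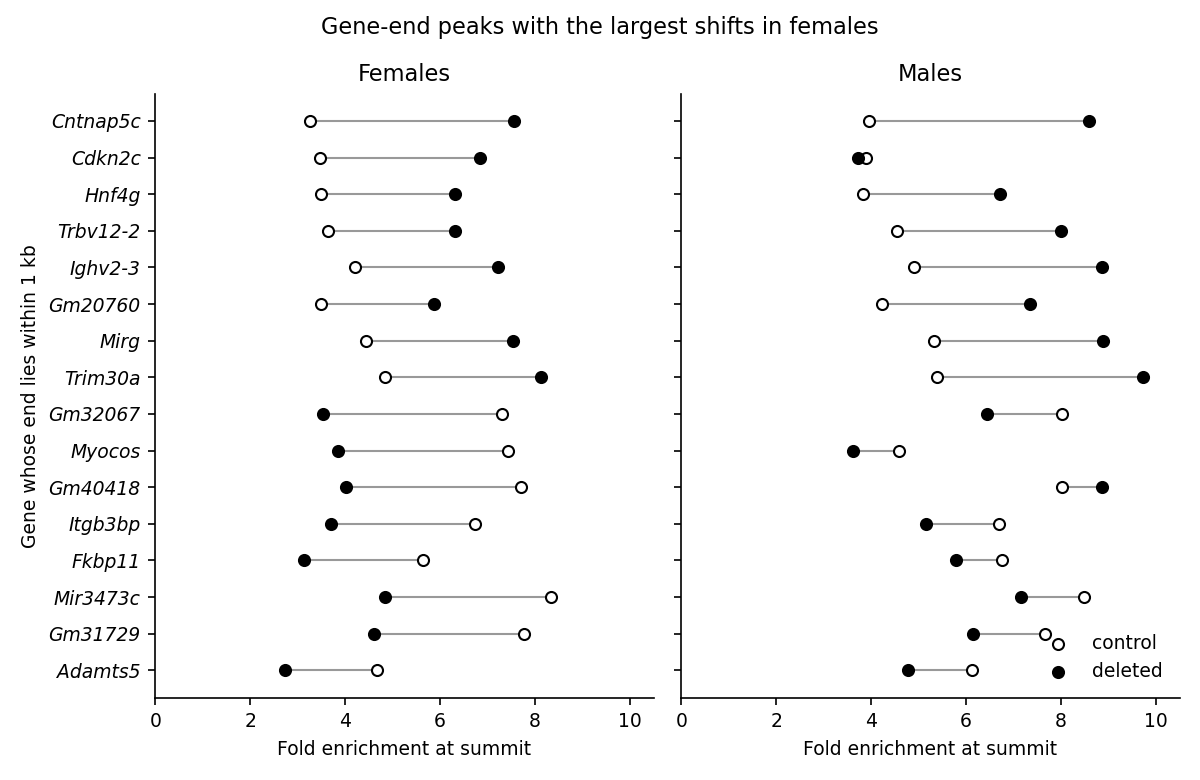
Fold enrichment at the summit of the 8 gene-end peaks with the largest upward and the 8 with the largest downward relative change among the stronger shared peaks, in females (left) and males (right). Open circles are control lists and filled circles deleted lists; Cdkn2c goes from 3.47 to 6.85 in females (summits 446 bp apart) and from 3.89 to 3.72 in males.

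The gene lists chosen for this tissue are read against the shares over all shared peaks, 1.77% up and 1.21% down. Most lists hold too few peaks for a share to be told from these. Among synaptic adhesion and long neural genes, 36 of 755 shared peaks shifted up, which is 4.77% (3.36% to 6.54%), and 12 (1.59%) shifted down. This list was chosen with earlier results known and holds very long genes. Peaks inside genes over 500 kb long, X included, shifted up in 2.88% of cases (2.40% to 3.42%). The upward shifts fell in 16 of the 28 genes, with Rbfox1, Csmd1, Dlg2 and Cntnap2 holding 8, 5, 4 and 3 of them. The list's median was 0.02, beside 0.00 over all shared peaks. In males 20 of its 579 peaks shifted up and 26 down, beside 2.26% up and 2.44% down over all male shared peaks. Imprinted genes outside the Snrpn, Igf2r and Kcnq1 clusters had 4 of 134 peaks shifted up (at Mirg, Gnas, Peg10 and Zrsr1) and 1 down, at Usp29. The Snrpn, Igf2r and Kcnq1 clusters had no shifted peak among 15, 17 and 32.

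Hox genes had 1 shifted peak of 36, at Hoxb8, which went from 4.07 to 2.41 and was shifted down in males as well. The clustered protocadherins had 0 of 37. The developmental pathways were near the shares over all peaks, with 2 up and 2 down of 122 peaks for Notch (1.64% each way), 1 and 2 of 142 for Wnt (0.704% and 1.41%), and 0 and 3 of 149 for BMP and TGF-beta (0% and 2.01%). Neural patterning homeobox genes had 3 up and 1 down of 159, and the NFI factors 0 up and 2 down of 78, both at Nfia. Markers of neurons had 2 up and 1 down of 88 peaks (2.27% and 1.14%), also near the shares over all peaks. No peak was shifted for astrocytes (43 peaks), oligodendrocytes (44), microglia and blood (17), endothelium (58) or fibroblasts (36), numbers of peaks at which about 2 or fewer would be called at those shares. The medians were −0.19 for microglia and blood and 0.14 for endothelium. Their part in other results was not tested.

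Smchd1 itself kept its promoter peak. The gene-end peak at chr17:71474477-71476105 had a fold enrichment of 8.28 in control and 8.81 in deleted females and ranks of 597 and 754. An internal Smchd1 peak had 2.86 and 2.96. The labels do not name the floxed exons, so these peaks do not check the deletion.

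The X chromosome stood slightly above the autosomes in females, but only with weaker peaks included. With lists of the strongest 52119 peaks the X median was 0.00047 and 7 autosomes were higher. With the full length its 2400 shared peaks had a median relative change of 0.033 (0.022 to 0.040), and the 19 autosomes had medians from −0.027 to 0.015. On X, 78 peaks (3.25%, 2.58% to 4.04%) shifted up and 21 (0.875%) shifted down, against 0.950% to 2.59% up and 0.860% to 1.67% down on the autosomes. In windows of 2 Mb with at least 10 peaks, 48 of 68 X windows (70.6%) had a median above 0, as had 598 of 1176 autosomal windows (50.9%). In males the X median was −0.012 (−0.032 to 0.0012) over 1658 peaks, with 33 shifted up (1.99%) and 73 down (4.40%). The difference between the sexes was not tested.

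The X offset was seen away from gene ends. From the strongest to the weakest of the 4 classes the X medians were −0.018, 0.034, 0.069 and 0.074, and the highest autosomal medians were 0.019, 0.018, 0.019 and 0.029. At gene ends the X median was −0.0059 (−0.021 to 0.0093), and 17 autosomes were higher. Inside and near genes it was 0.044 and 0.030, and far from genes it was 0.13 (0.085 to 0.17), with no autosome higher in any of these 3 classes. Of the 244 X peaks far from genes 17 (6.97%) shifted up and 0 shifted down, which allows a share of up to 1.50% by the exact interval. Unlike the medians, the share shifted up was not the highest on X in every class. It reached 10% far from genes on 1 autosome, and 3.90% near genes on 1 autosome beside 3.50% on X. Without the block from 26 to 30 Mb, chosen after seeing the data for its high medians, the far median on X was 0.11 and the X median 0.031.

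**Figure D4:**
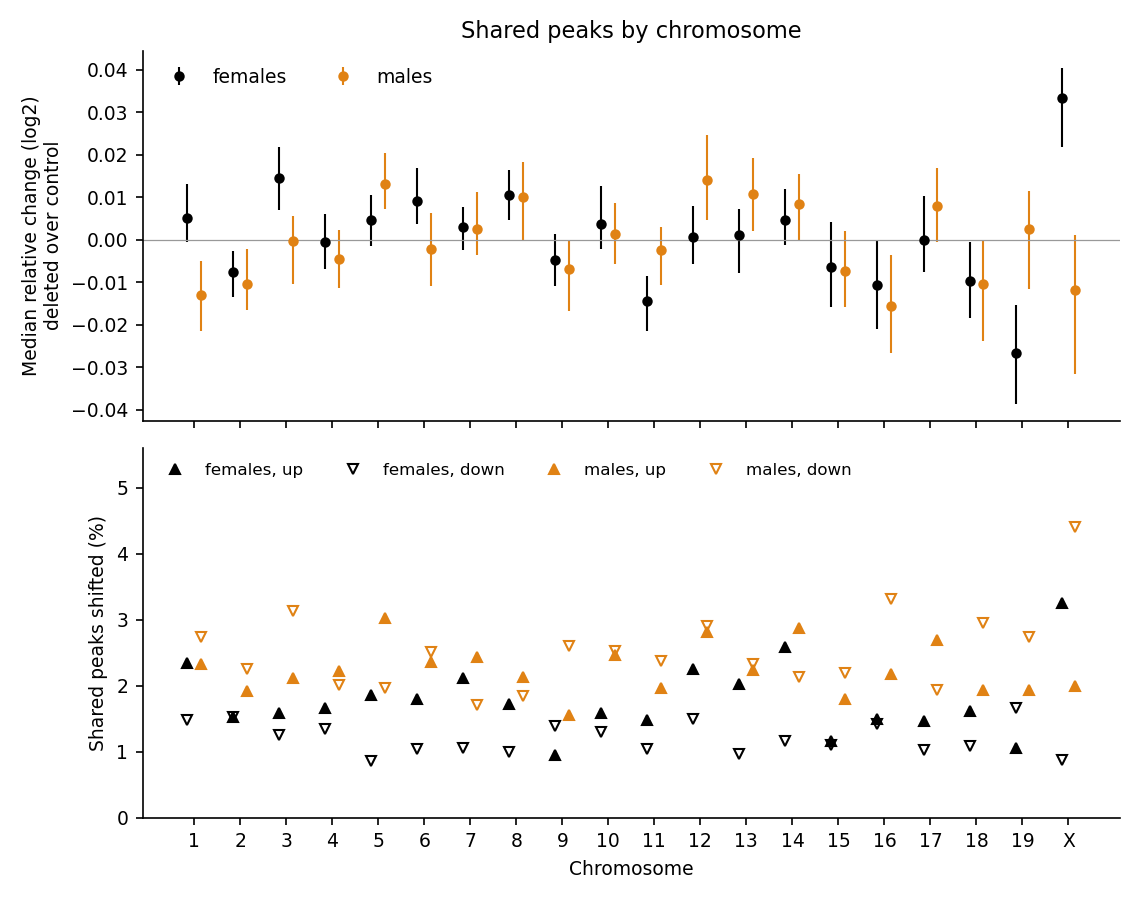
Median relative change (log2, top) and percentage of shared peaks shifted up or down (bottom) for each chromosome, in females (black) and males (orange). Bars are 95% order-statistic intervals over peaks, which are not replicates; X is the highest chromosome in females, at 0.033 (0.00047 with lists of the strongest 52119 peaks), and lies at −0.012 in males.

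The list of X repeat loci and the inactivation centre had 0 of 47 shared peaks shifted up and 2 (4.26%) shifted down, beside 3.25% and 0.875% over X. Xist, the noncoding RNA that coats the inactive X, had 2 shared peaks with relative changes of 0.37 (−0.20 to 0.94) and 0.11 (−0.45 to 0.66). Firre, a repeat-rich noncoding RNA locus, had 18 shared peaks with a median of −0.09, of which 2 shifted down with intervals that included 0. Its gene-end peak went from 11.75 to 9.77 in females, whereas males had 14.12 and 15.45. The repeat locus 4933407K13Rik had 9 shared peaks and none shifted. Among genes known to escape X inactivation, 1 of 48 peaks shifted up, at Usp9x, and 1 down, at Mid1, and the list's median was 0.07 (−0.07 to 0.14).

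Some stretches of the genome were higher over many neighbouring peaks. The window with the highest median, 0.39, spanned 98000001 to 100000000 on chromosome 8 and contains Cdh8, a cadherin gene, with 4 of 11 peaks shifted up and a male median of 0.34. The window from 60000001 to 62000000 on chromosome 4, which holds the major urinary protein (Mup) gene cluster, had 12 of 53 peaks shifted up, none down and a median of 0.35, beside 0.27 in males. Peaks of the Mup genes may share reads, since these genes are near-identical. On X the 2 windows from 26000001 to 30000000 had medians of 0.37 and 0.36 over 12 peaks each, with 1 and 0 peaks paired in males. The lowest window of all was also on X, from 124000001 to 126000000, with a median of −0.204 over 10 peaks, of which 1 shifted down. The lowest autosomal window, with a median of −0.197 over 59 peaks, contains Zfp608 on chromosome 18 and had a male median of −0.04. All these windows are extremes picked from 1244 windows with at least 10 peaks.

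The male lists share no sample with the female ones, and upward shifts recurred there. Of the 1455 upward female peaks 1060 had a male partner. The male median of these peaks was 0.30, 80.8% were above 0 and 300 (28.3%) were shifted up, against 2.28% of all 65604 peaks with partners in both sexes, while 7 were shifted down. Tag length was longer in the deleted list in females and shorter in males, and its part in this recurrence was not tested. Of the 994 downward peaks 824 had a male partner, with a male median of −0.09 and 84 (10.2%) shifted down against 2.50% of all. On X the upward peaks had 34 male partners of 78, of which 3 were shifted up. Over all 65604 peaks the correlation between the sexes was weak, with Pearson's r of 0.26 and Spearman's rho of 0.21, given as a description across peaks, which are not replicates and share their library and depth within a sex.

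**Figure D5:**
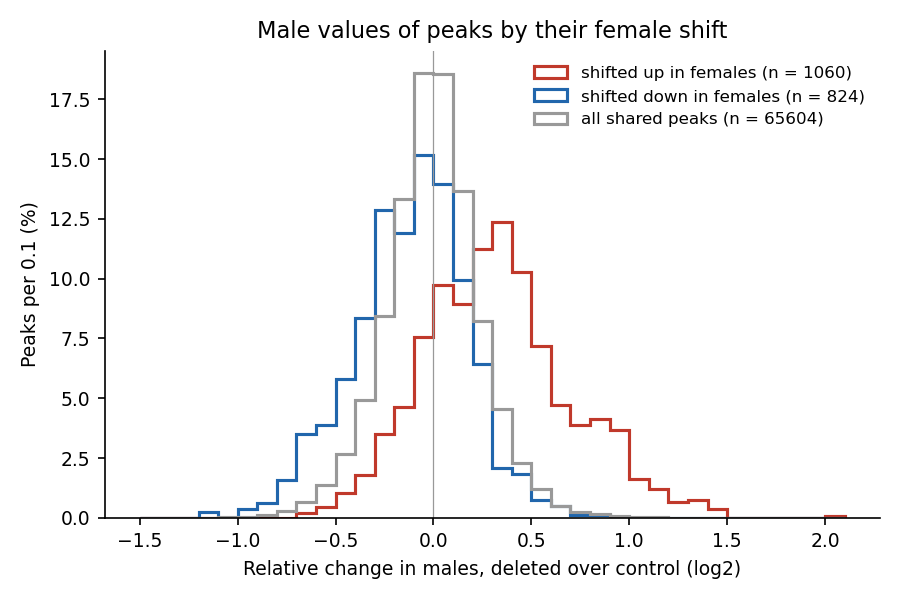
Distribution of the relative change in males (x axis, log2, in steps of 0.1) for peaks shifted up in females (red, 1060 peaks), shifted down in females (blue, 824 peaks) and all shared peaks (grey, 65604 peaks); the y axis is the percentage of each set. The red outline is displaced to a median of 0.30 and the blue one to −0.09.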

How the data were processed

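ATAC-seq peak lists of mouse neural stem cell lines, 1 pooled list per genotype and sex, were used as deposited, with samples grouped by their titles. Peaks were called by MACS 2.1.0.20140616, per the file headers, with a q limit of 0.05, tags shifted by 75 bp and extended to 150 bp, and without a control sample. Pileup is the deposited signal height at the summit, at most 300 because 1 tag per position was kept. The deposited fold enrichment is the ratio of pileup plus 1 to background plus 1, where background is the larger of the genome-wide and the local level (checked from the values). The −log10 q values are the authors' own, and the deposited −log10 p column was not used. Per the submitters' processing notes the build is mm10, and the tools listed, without their roles, are Bowtie2 2.2.5, Trim Galore 0.4.0, edgeR, MACS2, Picard, SAMtools and bcl2fastq.

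Peaks on chromosomes 1 to 19 and X were ranked by −log10 q, cut to equal length and paired by mutual best overlap of at least 1 bp. Relative change was centred in 20 strength classes, and a shift needed a size of 0.5. A gene end within 1 kb of the summit claimed a peak first, then a gene around the summit, then the nearest gene end up to 50 kb away, in a RefSeq table of GRCm38.p6, the same sequence as mm10. That table has no strand, so gene ends include both starts and stops. Promoter sequences are RefSeq's, of GRCm38.p6. Of 429 list genes asked for, 427 were found. Intervals are 95% exact binomial or order-statistic intervals, cover counting error only and are no replicate error. With 1 list per group no p-value was computed.

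The members, the 25 gene lists and the tests were chosen with earlier results of these data known. Genes were named by the number of shifted peaks (10 each way, at least 5 shared peaks), the median (8 each way, at least 8 shared peaks), the largest changes among strong peaks (10 each way) and gene-end peaks (8 each way), the X genes with most shifts, 4 set genes and 2 members of each list. Of the peaks this rule takes, 1 is not reported here. The calling was run on simulated data with changes placed only among the stronger control peaks, so that run does not check calls at weaker peaks. Alternatives changed the overlap, list length, ranking value, centring, threshold and gene assignment. Software was scipy 1.17.1, numpy 2.4.6 and pandas 2.3.3 in Python 3.11.15, with figures by matplotlib 3.10.9.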

Additional observations from a re-analysis of the deposited data

Results flagged for a closer look

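The X chromosome differed in direction between the sexes, with a median relative change of 0.033 in females and −0.012 in males. The peak inside Sgip1 was higher in deleted females, with a relative change of 1.09, and lower in deleted males, at −0.33. The peak inside Igf1r was lower in deleted females, at −0.56, and higher in deleted males, at 0.58. The median over Lancl3 peaks was 0.49 in females and −0.37 in males, where 4 peaks had a partner and 0 of them were shifted up or down. Each of these stands out because the values of the pooled lists have opposite signs in the sexes. The male counting intervals of X (−0.032 to 0.0012) and of Sgip1 (−0.86 to 0.19) include 0, so a male move is not shown there. The female summits compared lay 781 bp apart at Sgip1 and 805 bp apart at Igf1r. The difference was not tested, since each group has 1 list.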

How the results depend on the processing

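No paired analysis was possible because each group has 1 pooled peak list, although the labels share replicate numbers, and for the same reason no replicate could be left out. Of 134 values recomputed for the main results under other settings, 95 moved by less than their interval or, for counts, by less than 1.5 times, and 39 moved further. The settings that changed the threshold or the required rank move alter only the calls. The X medians, and the gene medians below, therefore could not move under those settings. With lists of the strongest 52119 peaks, 328 peaks shifted up and 149 down (68.8% up), and the shares on X were 1.50% up and 0.158% down. The X median was then 0.00047, with 7 autosomes higher, −0.021 at gene ends and 0.037 far from genes. The autosomal shares up were 0.389% at gene ends and 1.83% far from genes, and 25.5% of upward and 4.76% of downward female peaks shifted alike in males. With a threshold of 0.3, 6072 peaks shifted up and 6483 down (48.4% up), with 11.8% up and 6.21% down on X, autosomal shares up of 4.66% at gene ends and 13% far from genes, and 21.5% of downward peaks shifted down in males. With a threshold of 0.75, 340 shifted up and 80 down (81.0% up), with 0.583% up and 0.125% down on X, 0.244% and 1.24% up at autosomal gene ends and far from genes, and 43.4% and 4.17% of upward and downward peaks alike in males. With 1 median for all peaks, 47.2% of shifts were upward, the X median at gene ends was 0.025, the autosomal shares up were 0.749% at gene ends and 3.60% far from genes, and 31.7% of upward peaks recurred in males. The upward share of shifts was 61.9% with summits within 100 bp, 62.2% with all peaks as deposited (where 1.09% of autosomal gene-end peaks shifted up), 57.0% ranked by fold enrichment and 53.8% with quantile-matched values. Among 66 named genes with a median of at least 0.2 in size, 60 kept its sign in all settings run. The exceptions were Csmd1 (−0.026), Phactr3 (−0.024), Nfasc (0.043) and Sox6 (0.011) with the strongest 52119 peaks, Gm20670 (−0.080) with peaks at or inside genes only, and Nfic (−0.13) ranked by fold enrichment. The causes were not tested. Depth limits single weak peaks, whose counting error is as large as the spread of their changes.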
